A study of Drosophila melanogaster with 2 samples.

Results

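Neuronal and glial identity genes are genes whose products define, or are used as markers of, the cell types of the nervous system. A list of 9 such genes (elav, scrt, pros, nSyb, brp, Syt1, gcm, repo and moody) was examined for chromatin peaks of CG14441, an uncharacterised protein, out of 13945 protein-coding genes on 6 chromosome arms. The genes were chosen by their known roles and not by a measured value, with earlier results of these data known. Each was taken with its gene body and 5 kb on either side, and every peak with its summit in that window was kept. This gave 11 of the 5115 peaks of the conservative set for both replicates together, called the main set here, and they lay in the windows of 7 of the 9 genes.

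The peaks came from chromatin immunoprecipitation followed by sequencing (ChIP-seq) of whole Drosophila melanogaster embryos aged 0 to 24 h, with an antibody against GFP, although the antibody field of the labels names CG14441. There was 1 group, the strain CG14441-GFP, in 2 biological replicates. All embryos carried CG14441 fused to eGFP by an insertion that targets CG14441, and the promoter that drives the fusion is not given in the sources used here. No untagged, wild-type or other control embryos were analysed here. In whole embryos of mixed age, strong occupancy in a few cells and weak occupancy in many cannot be told apart. The lists give binding and not expression, so the identity of the cells behind a peak at a neuronal or glial gene was not measured.

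In the fly, neural stem cells called neuroblasts divide asymmetrically, and their daughters become neurons or glia. The zinc finger protein gcm switches daughters to the glial fate and turns on repo, a homeodomain protein kept in nearly all glia. The homeodomain protein pros is passed to the daughter of a neuroblast and ends its self-renewal. The product of scrt is a zinc finger protein of the Snail family found in newborn neurons. The neuronal RNA-binding protein elav controls alternative splicing and polyadenylation. Synaptic terminals then need nSyb, a vesicle membrane protein of the fusion machinery, brp, a scaffold of the active zone, and Syt1, the calcium sensor of vesicle release. The receptor moody acts in the surface glia that seal the blood-brain barrier.

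The sequence under the summits is shown first, for the peaks at elav and moody, and for the stronger peaks near pros and nSyb that stand at promoters of other genes. Each stretch reaches at most 75 bases to either side of a summit of the main set, cut where an annotated UTR begins, and is given 5′ to 3′ in the direction of the gene. Sequence and coordinates are those of the dm6 assembly. Capitals mark matches, on either strand, to the motifs GAGAG (GAGA factor), CGATA (part of the BEAF-32 site), CANNTG (E-box) and TAATTA (homeodomain).
elav upstream peak, chrX:523404-523554, minus strand: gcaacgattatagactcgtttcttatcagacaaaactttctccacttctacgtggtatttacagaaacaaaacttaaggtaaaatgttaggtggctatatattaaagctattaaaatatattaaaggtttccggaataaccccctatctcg
elav intronic peak, chrX:522569-522719, minus strand: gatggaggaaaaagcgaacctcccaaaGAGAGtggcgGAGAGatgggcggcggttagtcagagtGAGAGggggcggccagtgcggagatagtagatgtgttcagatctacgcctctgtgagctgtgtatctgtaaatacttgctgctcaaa
moody promoter peak, chrX:2050207-2050357, minus strand: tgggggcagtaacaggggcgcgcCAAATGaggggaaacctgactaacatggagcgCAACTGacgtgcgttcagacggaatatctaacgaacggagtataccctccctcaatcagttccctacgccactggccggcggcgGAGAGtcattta
moody distal peak, chrX:2050710-2050860, minus strand: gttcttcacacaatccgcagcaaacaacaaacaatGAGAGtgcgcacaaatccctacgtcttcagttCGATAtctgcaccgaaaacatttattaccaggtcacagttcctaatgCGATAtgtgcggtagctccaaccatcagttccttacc
mgr and Irbp peak beyond pros, chr3R:11409876-11410012, plus strand: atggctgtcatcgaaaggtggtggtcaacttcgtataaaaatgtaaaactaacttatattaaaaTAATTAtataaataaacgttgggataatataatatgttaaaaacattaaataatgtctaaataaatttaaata
Bgb and Mettl2 peak before nSyb, chr3L:1639506-1639656, minus strand: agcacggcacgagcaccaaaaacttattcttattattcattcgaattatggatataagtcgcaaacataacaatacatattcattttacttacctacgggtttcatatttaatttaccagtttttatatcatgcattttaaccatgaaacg

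Motifs were counted up to 100 bp from each summit, further than the letters shown. The window around the elav upstream summit had none of the 10 motifs searched, whereas the one around the elav intronic summit had 3 matches to GAGAG. The moody promoter window had 5 matches to GAGAG and 2 to CANNTG. The moody distal window had 3 matches to CGATA and 1 to GAGAG. The window between mgr and Irbp was rich in A and T, with a GC content of 26.4%, and the GC content was 54.7% around the moody promoter summit. The median GC content was 42.3% over the 11 peaks of the genes and 36.3% over all 5115 peaks (quartiles 31.8% and 41.8%). GAGAG was found around 6 of the 11 summits, against 22.2% of all 5115 summits. These were the elav intronic summit, both moody summits, and summits at or inside other genes near pros, repo and Syt1. CGATA was found around 2, against 27.2%. CANNTG was found around 4 (61.4% of all summits), TAATTA around 2 (16.1%), and CAGGTG, the E-box core bound by Snail-family proteins that CANNTG also counts, around 1 (6.08%). A run of 8 A was found around 1 (15.2%). None of the 11 windows held TATCGATA (DRE, 2.97% of all summits, which CGATA also counts), CAGGTAG (Zelda, 0.899%), ATGCGGGT (a Gcm site, 0.254%) or GGTCACAC (core of the M1BP site, 1.97%). A match is a string of letters, not a measured site, and these shares were not tested.

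Among the 9 genes, 7 had a summit in the window, beside 49.5% of all protein-coding genes. A transcription start site (TSS) of the gene itself had a summit at most 500 bp away in 3 of the 9, elav, moody and pros, beside 18.9% of all protein-coding genes. These counts rest on 9 genes, and whether they differ from those of all genes was not tested, since the genes were chosen with results known. The windows add up to 278 kb and held 3.96 summits per 100 kb, against 3.82 over the arms. Long genes had a summit in the window more often: 70.7% of genes over 20 kb, 62.4% of those of 5 to 20 kb and 44.5% of shorter ones. The 9 genes had a median length of 10108 bp, against 2166 bp for all protein-coding genes. With a flank of 2 kb in place of 5 kb, 4 of the 9 genes had a summit, and in the thresholded set of replicate 2 alone there were 7 summits in place of 11.

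**Figure D1:**
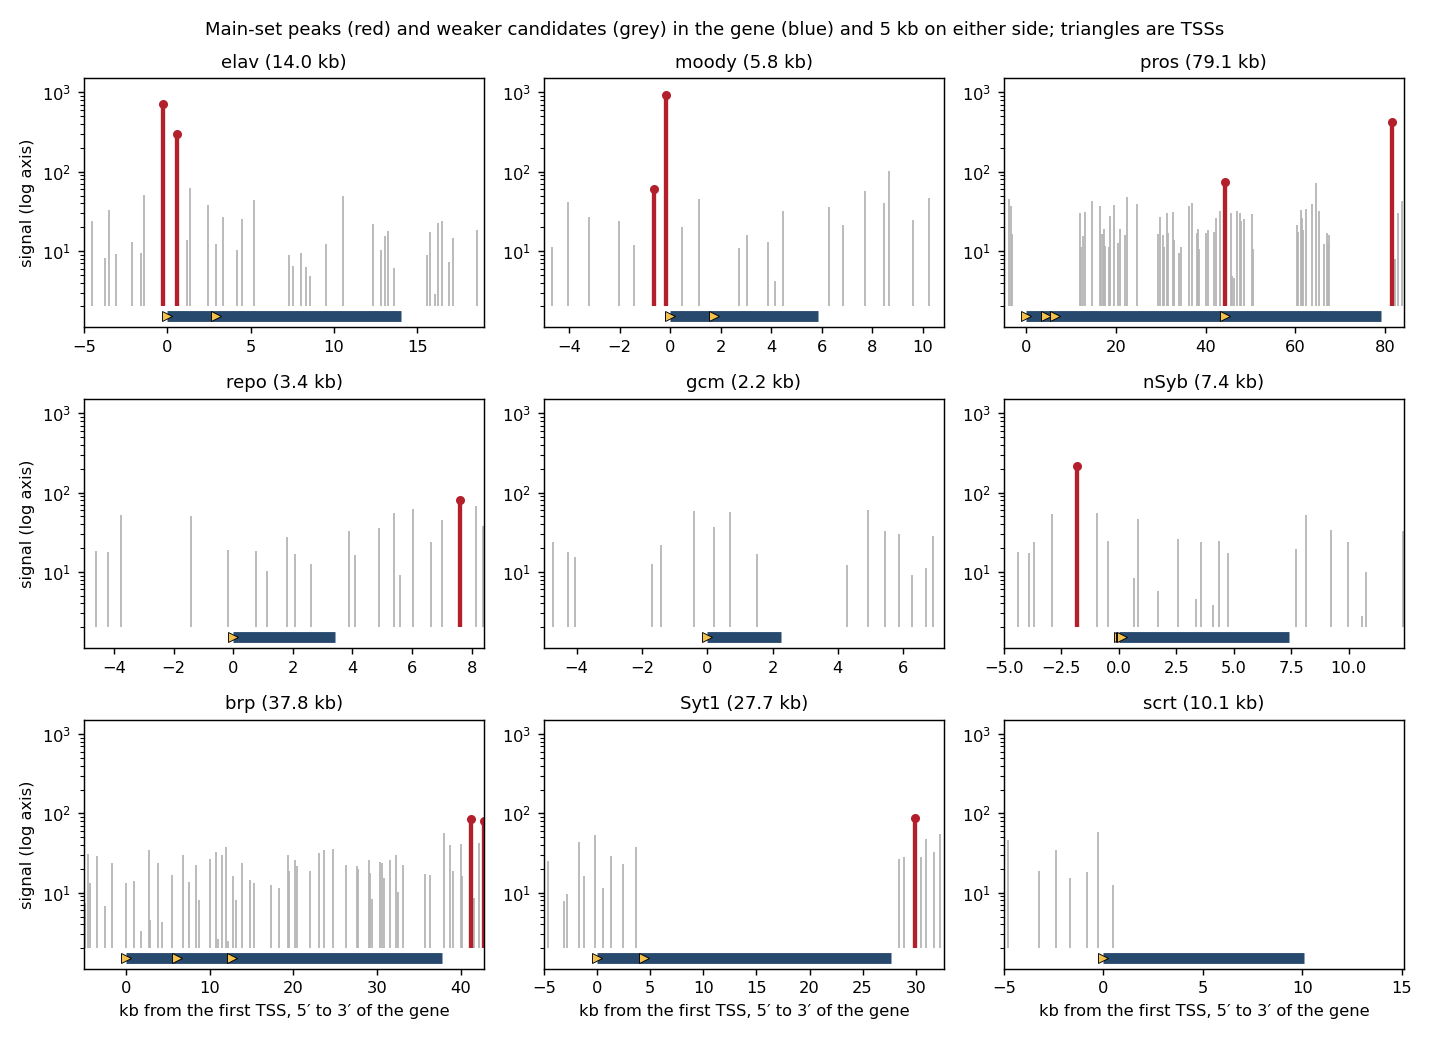
Main-set peaks (red stems) and weaker candidates of the ranked list (grey) by distance in kb from the first TSS of each gene, with the signal of both replicates together on a log axis, the gene body in blue and TSSs as triangles. The highest stems stand at the first TSS of elav and of moody, and at pros, repo, nSyb, brp and Syt1 the highest main-set stem lies outside the gene.

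Of the neuronal genes, elav had strong peaks on both sides of its first TSS. The upstream peak (chrX:523360-523624) had a signal of 709, the value given by the authors' peak caller for both replicates together, and ranked 134 of 5115. Its signal was 396 in replicate 1 and 309 in replicate 2 (352 ± 62.0, SD, n = 2). The summit lay 253 bp upstream of the TSS used by 3 of the 4 annotated elav transcripts, and 3194 bp upstream of the second TSS. The second peak (chrX:522546-522722, rank 689) had a signal of 299, with 154 in replicate 1 and 141 in replicate 2 (147 ± 9.32, SD, n = 2). It lay 582 bp downstream of the same TSS, in an elav intron, so the summits were 835 bp apart. The upstream peak was 2.37 times as strong as the intronic one, and the replicate values of these peaks did not overlap.

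Both elav peaks were in the thresholded sets of both replicates. Both also lie in an intron of arg, the arginase gene, which is transcribed from the other strand, and lncRNA:enrr shares the first elav TSS, so neither peak can be given to elav alone. At the second TSS of elav the strongest candidate had a signal of 26.6 and a global irreproducible discovery rate (IDR, the expected share of candidates that do not recur between replicates) of 0.668. The authors' threshold for the main set corresponds to a global IDR of 0.01. The less strict set for both replicates also held an intronic peak 1381 bp downstream of the first TSS (signal 63.0) and one overlapping it at 1174 bp (13.7), which the main set did not.

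**Figure D2:**
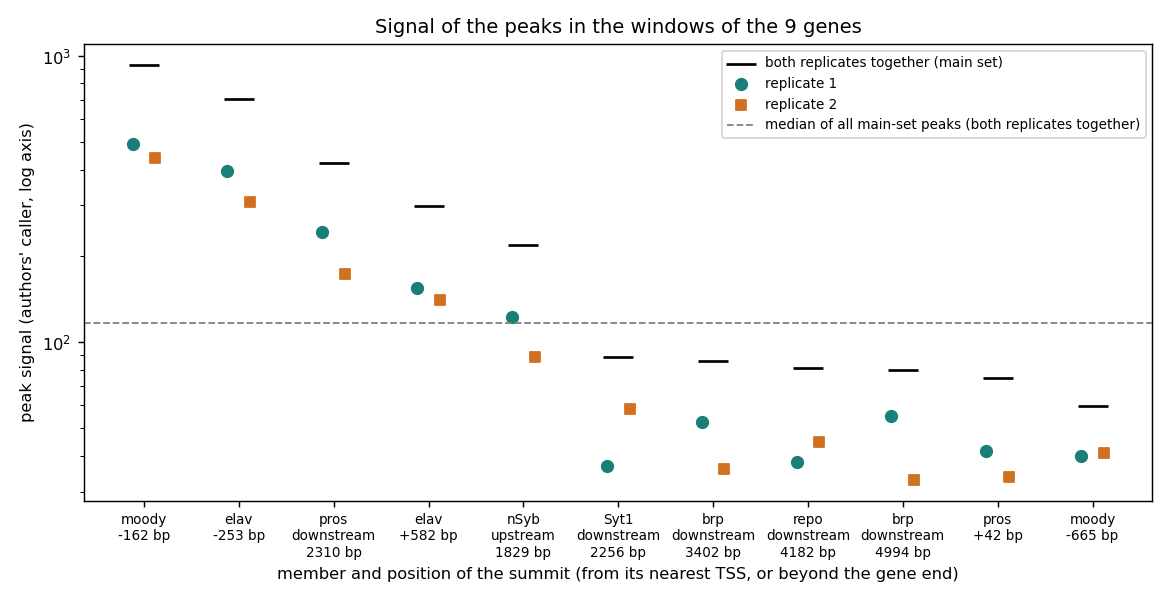
Peak signal (log axis) of the 11 peaks in the windows of the 9 genes, ordered by the signal of both replicates together (horizontal marks), with replicate 1 (circles) and replicate 2 (squares) from their own lists and the median of all main-set peaks as a dashed line. The moody promoter peak is the highest at 930.4, and 6 peaks from 59.9 to 88.5 lie under the median of 116.

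The pros gene had 1 weak peak at a TSS of its own and a stronger one that stood at its neighbours. The weak peak (chr3R:11372668-11372991) had a signal of 74.6, rank 4277, with 41.6 in replicate 1 and 33.7 in replicate 2 (37.6 ± 5.53, SD, n = 2). Its summit lay in a 5′ UTR of pros, 42 bp downstream of the last of 4 TSSs, from which 3 of the 6 pros transcripts start. The ranked list for both replicates together, which also holds candidates under the threshold, had none within 500 bp of the other 3 pros TSSs. Neither replicate's own thresholded set held this peak, although its global IDR for both together was 0.00483.

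The stronger peak (chr3R:11409834-11410057) had a signal of 423 and lay 2310 bp beyond the 3′ end of pros. It had 242 in replicate 1 and 173 in replicate 2 (207 ± 48.7, SD, n = 2) and was in both thresholded sets. Its summit lay 62 bp upstream of mgr, which encodes a prefoldin subunit, and 110 bp upstream of Irbp, the fly Ku70 gene of DNA repair, whose promoters point away from each other. It was 37149 bp from the nearest pros TSS. The set of replicate 1 alone held a further peak in the 3′ UTR of pros (signal 46.0), where the signal in replicate 2 was 22.1.

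At scrt no main-set peak was found. The strongest candidate lay 282 bp upstream of the only scrt TSS, with a signal of 58.4, 24.5 in the first replicate column and 31.5 in the second, and a global IDR of 0.0478. These columns of the ranked list do not carry replicate numbers, but for all 11 peaks of the genes the first held the same value as the list of replicate 1, and the second the same as the list of replicate 2, to within 0.0001. None of the 3 ranked lists, that for both replicates and each replicate's own, held a candidate from 3.04 kb downstream of the scrt TSS to beyond the end of its window, a stretch that made up 60.0% of the window. Similar stretches over 5 kb took 54.6% of the Syt1 window and 20.3% of the pros window, none of the windows of the other 6 genes, and 18.6% of the arms. Whether DNA in these stretches lacked enrichment or could not be called was not tested. None of the 19 TSSs of the 9 genes lay in one.

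The synaptic genes nSyb, brp and Syt1 had no main-set peak at their own TSSs, and each summit in their windows stood at or inside another gene. Most protein-coding genes had no summit within 500 bp of a TSS either (18.9% had one). In the wider synaptic list, described below, 3 of 28 genes had one: EndoA, comt and Vmat. For nSyb, the peak (chr3L:1639419-1639742) had a signal of 218, rank 1107, with 122 in replicate 1 and 88.8 in replicate 2 (106 ± 23.6, SD, n = 2), and was in both thresholded sets. It lay 1829 bp upstream of nSyb, but 130 bp upstream of Bgb, which encodes a partner of Runt-domain proteins, and 346 bp upstream of Mettl2, a methyltransferase gene that lies between the peak and nSyb. For Syt1, the peak (chr2L:2769909-2770232) had a signal of 88.5, with 36.9 in replicate 1 and 58.4 in replicate 2 (47.6 ± 15.2, SD, n = 2). It lay 2256 bp beyond the 3′ end of Syt1 and 2 bp upstream of a TSS of colt, a mitochondrial carrier gene, with HINT1 64 bp away on the other side. Only the set of replicate 2 held it.

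The brp window held 2 weak peaks, both beyond the 3′ end of brp and in CG1888, which runs in the opposite direction. The first (chr2R:9544805-9545128) had a signal of 86.1, with 52.3 in replicate 1 and 35.98 in replicate 2 (44.1 ± 11.5, SD, n = 2), and lay in the 3′ UTR of a CG1888 transcript. Neither replicate's own set held it. The second (chr2R:9546397-9546720) had a signal of 79.9, with 55.2 in replicate 1 and 33.0 in replicate 2 (44.1 ± 15.7, SD, n = 2), and was in the set of replicate 1 only. It lay 399 bp downstream of a CG1888 TSS and 4994 bp from the end of brp, just inside the window, and the next summit, 5626 bp from brp, was just outside. Within 500 bp of the 3 brp TSSs the strongest candidates had signals of 13.4 and 16.4, with none at the middle one. At the first nSyb TSS the strongest candidate had 24.8, and at the first Syt1 TSS 52.8, with 6.49 in the first and 38.0 in the second replicate column. The median of the 116197 candidates under the threshold was 22.4.

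**Figure D3:**
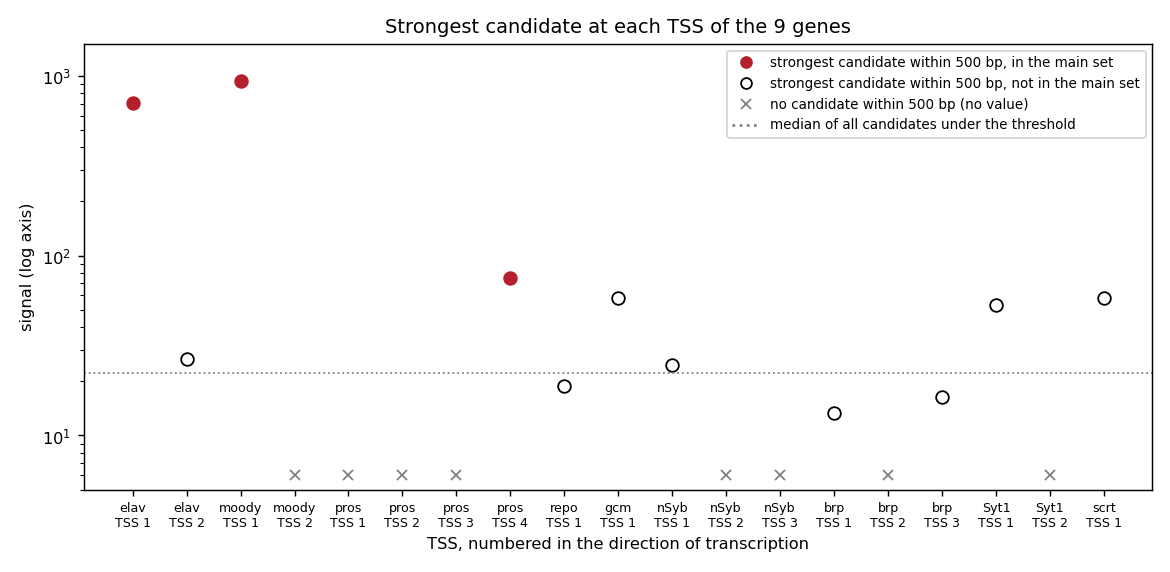
Signal (log axis) of the strongest candidate within 500 bp of each of the 19 TSSs of the 9 genes, filled where it is in the main set, with crosses where no candidate was listed and a dotted line at 22.4, the median of all candidates under the threshold. Only the first TSS of elav, the first of moody and the last of pros have a main-set peak, and 8 TSSs have no candidate.

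Of the glial genes, moody had the strongest peak of the 9. This peak (chrX:2050161-2050403) had a signal of 930.4 and ranked 75 of 5115. Replicate 1 had 492 and replicate 2 had 438 (465 ± 38.4, SD, n = 2), both above either value of the elav upstream peak. The summit lay 162 bp upstream of the first moody TSS, from which 2 of the 6 transcripts start. The second TSS, 1725 bp further along and used by the other 4 transcripts, had no candidate in that ranked list within 500 bp. A second, weak peak (chrX:2050623-2050946) stood 503 bp further upstream, 665 bp from the TSS. Its signal was 59.9, rank 4866, with 39.8 in replicate 1 and 40.8 in replicate 2 (40.3 ± 0.703, SD, n = 2).

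The moody promoter peak was 15.5 times as strong as the distal one, and both were in the thresholded sets of both replicates. No other gene had a TSS within 500 bp of either summit. Both summits lay in an intron of CG4313, which spans moody on the other strand, so neither peak can be given to moody alone. Together with elav, moody was among the genes with at least 2 main-set summits within 1 kb of a TSS, which were 3.08% of all protein-coding genes. Over all main-set peaks, 23.0% had another summit within 1 kb. The moody window also held a stronger candidate than the distal peak, in introns of Actn and usp, with a signal of 103. It had 77.5 in replicate 1 and 22.4 in replicate 2 and a global IDR of 0.418. Both the less strict set and that of replicate 1 held it, but the main set did not. The less strict set held a further peak of 57.2 near it, with 33.8 in replicate 1 and 30.8 in replicate 2.

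The glial transcription factor genes repo and gcm carried little. In the wider glial list, described below, pnt had 8 main-set summits in its window, though none within 500 bp of a TSS. The gcm2 window in that list held none. At repo the only main-set peak (chr3R:18243622-18243945) had a signal of 81.0, with 38.1 in replicate 1 and 44.8 in replicate 2 (41.4 ± 4.76, SD, n = 2), and neither replicate's own set held it. It lay 4182 bp beyond repo, in an intron of 14-3-3epsilon, a gene for an adaptor protein of signalling. At the repo TSS the strongest candidate had 18.9, with a global IDR of 0.857. The set of replicate 1 alone held 2 overlapping peaks in coding sequence of repo (signals 24.0 and 2.65).

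At gcm no main-set peak was found. The strongest candidate, 4910 bp downstream of its TSS and beyond the gene, had 60.6 with replicate columns of 28.4 and 35.0. Its global IDR of 0.0146 lay just outside the main-set threshold, and the less strict set held it. Another candidate 415 bp upstream of the gcm TSS had 57.8, with columns of 22.2 and 37.0 and a global IDR of 0.134.

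The peaks were ordered by the signal of both replicates together, which rests on the same 2 replicates. In that order, replicate values of neighbours were apart for the strong peaks and overlapped for the weak ones, and this was not tested. From the moody promoter peak down through elav upstream, mgr and Irbp, elav intronic and Bgb and Mettl2, the replicate values of neighbours in the order did not overlap, and neither did those of the last of these and the next. Among the 6 weaker peaks, with signals of 59.9 to 88.5, each overlapped the next. Replicate 1 was higher at 8 of the 11 peaks, against 61.6% of all main-set peaks. The log2 ratio of replicate 1 to replicate 2 ran from -0.66 at the Syt1 peak to 0.74 at the second brp peak, with a median of 0.30, against a median of 0.11 over all main-set peaks (quartiles -0.17 and 0.38). Of the 11, 6 overlapped a thresholded peak of both replicates, beside 55.4% of all main-set peaks. Replicate 1 alone held 1, replicate 2 alone 1, and 3 were in neither.

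Of the 7 genes with a summit in the window, 4 (repo, nSyb, brp and Syt1) had none within 500 bp of a TSS of their own, beside 61.8% of all protein-coding genes with a summit in the window. Of the 11 summits, 3 lay within 500 bp of a TSS of the gene itself, 4 within 500 bp of a TSS of another protein-coding gene only, and 4 further from any TSS.

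Wider lists of nervous system genes, which hold the 9 genes too, were described in the same way. Of 114 matched genes, 13 had a summit at most 500 bp from a TSS (11.4%, beside 18.9% of all protein-coding genes), and 50 had one in the gene or within 5 kb (43.9%, beside 49.5%). Without the 9 genes, 10 of 105 had one at a TSS. Among neuronal identity and RNA-binding genes these were 2 of 17, elav and Hk, a potassium channel subunit (signal 93.6). Among synaptic vesicle and active zone genes there were 3 of 28: EndoA, the endophilin gene (147), comt, which encodes the fusion factor NSF (103), and Vmat, the vesicular monoamine transporter (91.5).

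Among neuroblast and progenitor genes there were 3 of 30: numb, a Notch inhibitor passed to 1 daughter cell (368), da, the partner of proneural proteins (125), and pros. Among glial genes there were 5 of 31: moody, then Gli (177) and cold (170) of the septate junctions, vari, a scaffold of the same junctions (78.3), and bdl, an adhesion protein (73.8). Among transmitter genes Vmat was the only 1 of 16. The promoter peaks of elav and moody were higher than any other found at a TSS in these lists. The replicate columns at numb, the next, were 229 and 135, below both replicates of the elav upstream peak. At these list genes no candidate past the threshold was missing from the main set. The difference between the lists and all genes was not tested.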

How the data were processed

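Peak lists from ChIP-seq of 2 biological replicates in 1 group were used, 7 of the 8 deposited. Per the labels, chromatin was sonicated to a fragment range of 200 to 800 bp. Per the file descriptions deposited by the authors, dm6 alignments of each replicate and of a control went into peak calling, followed by ranking and an IDR threshold. The sources used here name no aligner or peak caller. The deposited signal is the authors' caller value, on a scale not stated. The deposited IDR column is a -log10 value, and the deposited summit (unit other) is an offset in bases within the peak. Without read counts the depth is unknown, and nothing in the sources says how far the replicates share material.

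Genes and TSSs came from Ensembl release 115 (BDGP annotation 6.54) and sequence from RefSeq's copy of the same assembly. Coordinates are 1-based. Peaks off the 6 chromosome arms were left out. Replicate values come from the candidate of each replicate's own ranked list that overlaps the peak by at least 1 bp, with the nearest summit. Python 3.11.15, numpy 2.4.6, pandas 2.3.3 and matplotlib 3.10.9 were used, and assignment of summits and motifs was tested on simulated data. The genes and lists were chosen with earlier results of these data known, so no test was made. Of the symbols written in the lists, 7 were not matched to the annotation. The rule for names covered all 9 genes with every peak, or the strongest candidate where there was none. It also covered the genes with a TSS within 500 bp of a summit, and up to 4 genes of each list by signal. The genes pnt and gcm2 of the glial list were named outside this rule.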

Additional observations from a re-analysis of the deposited data

How the results depend on the processing

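The alternatives were the less strict set for both replicates, each replicate's own set, the stronger peaks alone, other flanks and promoter windows, and other overlap rules. The less strict set gave 8 genes with a summit in the window and 16 summits, against 7 and 11. Its median signal over the peaks of the 9 genes was 83.5, against 88.5. With each replicate left out in turn, 5 to 6 genes had a summit in the window, there were 7 to 11 summits, 2 genes had one at a TSS (elav and moody in both), and the median signal was 77.5 to 141, on the scale of 1 replicate. Peaks at or above the median signal left 4 genes, 5 summits and a median of 423. The gene body alone left 2 genes, 2 summits, 1 of them in both replicate sets, and a median of 187. A flank of 2 kb gave 4 genes, 6 summits and a median of 259. A flank of 10 kb gave 20 summits, 12 of them in both replicate sets, and a median of 119. A promoter window of 250 bp kept moody and pros but not elav, whose summit lies at 253 bp. When overlap had to cover at least 50% of both peaks, 5 peaks were in both replicate sets, against 6. No paired analysis was possible because the series holds a single group. With no read counts, weak peaks and candidates can be read by rank and recurrence alone.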

Other observations

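The nearest main-set summit outside the window stood within 500 bp of a TSS of another protein-coding gene for 6 of the 9 genes. For brp, 5626 bp beyond the gene and at a TSS of CG1888, it had a signal of 1359, with replicate columns of 745 and 635. For Syt1, 6346 bp downstream at Snx21 and aph-1, it had 246. For nSyb, 7578 bp upstream between alphaCOP, which encodes a coat protein of Golgi vesicles, and CG13919, it had 697. For gcm, 9383 bp downstream at brwl, it had 309.9. For elav, 9500 bp downstream at svr, it had 149.6, less than the 709 and 299 of the peaks in the elav window. For pros, 14300 bp downstream at Sptz and ninaG, it had 525.

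For moody, repo and scrt no TSS of a protein-coding gene lay within 500 bp of that summit. For moody, 11203 bp upstream in an intron of Sik2, it had 66.6, less than the 930.4 of the moody promoter peak. For repo, 7251 bp upstream, it had 76.6, and of the replicate sets only that of replicate 2 held it. For scrt, 22962 bp downstream and outside protein-coding genes, it had 126.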
